A study of Mus musculus with 10 samples.

Results

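Pecam1, Cdh5, Kdr, Flt1, Tek, Tie1, Eng, Nos3, Vwf and Klf2 are genes of the vascular endothelium, the cell layer that lines the aorta, and they were followed in 10 mouse aortas on Affymetrix Mouse Gene 2.0 ST arrays. They were chosen by gene symbol and make up 10 of the 22180 genes tested, each read by 1 probe set, so 10 probe sets in all. The comparison set 5 male mice lacking apolipoprotein E (ApoE knockout) against 5 male mice lacking ApoE and interleukin 17 (double knockout). Both groups were labelled C57BL/6, lacked ApoE with no tissue-restricted allele named, were put on a high fat diet at 8 weeks of age, stayed on it for 3 weeks and gave their whole aortas at 11 weeks. Deposited values are on a log2 scale and every difference is given as double knockout minus ApoE knockout. The protocol text attached to the ApoE knockout samples covers wild-type animals and an ApoE/caspase-1 cross and has no IL-17 animals, whereas the text of the other samples names the IL-17 cross, and the sources used here give no scan dates. Batch and genotype therefore cannot be told apart in any comparison.

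Endothelial cells hold together through VE-cadherin (Cdh5) and PECAM-1 (Pecam1), and they receive growth signals through the VEGF receptors (Kdr, Flt1) and the angiopoietin receptor system (Tek, Tie1). They release nitric oxide made by endothelial nitric oxide synthase (Nos3), which relaxes the smooth muscle beneath, and they store von Willebrand factor (Vwf), which tethers platelets at a breach. Steady laminar flow raises the transcription factor KLF2 through MEF2 factors, and KLF2 in turn favors Nos3 and restrains inflammatory genes, whereas disturbed flow at branch points lowers it.

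The stretches just before the transcription starts of Klf2, Tek, Tie1 and Flt1 are shown because the results turn on these genes: Klf2 and Tek were called lower, Flt1 was called higher, and Tie1 is the close relative of Tek that passed no test. Each line is the 250 bases before the RefSeq start on GRCm38.p6, read 5′ to 3′ on the gene's strand, and capitals mark matches on either strand to AGGAAG (an ETS-type core, CTTCCT on the other strand), to CACCC (a KLF-type core, GGGTG on the other strand) or to the MEF2 motif.
Klf2 (chr8:72318812-72319061, plus strand): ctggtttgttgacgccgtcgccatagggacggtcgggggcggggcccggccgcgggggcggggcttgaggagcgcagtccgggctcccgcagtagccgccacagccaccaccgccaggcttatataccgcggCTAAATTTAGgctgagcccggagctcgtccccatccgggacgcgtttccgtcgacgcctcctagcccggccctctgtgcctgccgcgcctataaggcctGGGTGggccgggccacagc
Tek (chr4:94739039-94739288, plus strand): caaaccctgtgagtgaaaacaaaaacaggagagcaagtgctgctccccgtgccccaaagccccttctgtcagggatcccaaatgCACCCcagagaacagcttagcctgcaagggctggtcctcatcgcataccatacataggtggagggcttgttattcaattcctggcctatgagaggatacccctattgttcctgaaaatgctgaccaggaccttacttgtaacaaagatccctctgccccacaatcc
Tie1 (chr4:118489850-118490099, minus strand): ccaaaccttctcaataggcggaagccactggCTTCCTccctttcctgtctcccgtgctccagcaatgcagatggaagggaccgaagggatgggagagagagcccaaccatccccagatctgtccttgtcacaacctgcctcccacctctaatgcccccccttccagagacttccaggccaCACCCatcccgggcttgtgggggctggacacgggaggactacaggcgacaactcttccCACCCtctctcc
Flt1 (chr5:147726012-147726261, minus strand): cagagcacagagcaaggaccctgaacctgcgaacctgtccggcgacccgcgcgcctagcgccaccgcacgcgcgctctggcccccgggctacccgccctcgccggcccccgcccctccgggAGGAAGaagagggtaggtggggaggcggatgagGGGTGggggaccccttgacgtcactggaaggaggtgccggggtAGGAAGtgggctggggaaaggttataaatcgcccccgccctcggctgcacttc
Klf2 held 1 match to the MEF2 motif, CTAAATTTAG from -118 to -109, a palindrome that matches on both strands, and the motif was present in 2.92% of all 32851 windows of 250 bases. AGGAAG was found 2 times in the Flt1 window, 1 time in that of Tie1 and not in those of Klf2 and Tek, against 29.5% of all windows holding it. CACCC matched 1 time each in Klf2, Tek and Flt1 and 2 times in Tie1, and 52.0% of all windows held it, so a match to it is common. Windows were at hand for 6 of the 10 genes, including Kdr and Eng. That of Eng, also called lower, held AGGAAG 2 times and CACCC 4 times. That of Kdr, which was not called, held AGGAAG 0 times and CACCC 1 time. Pecam1, Cdh5, Nos3 and Vwf had no window. These matches describe letters in a window and say nothing of binding in these aortas.

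In the double knockout aortas, 4 of the 10 genes were called lower (Klf2, Tek, Eng and Pecam1), 1 was called higher (Flt1) and 5 passed no test (Cdh5, Kdr, Tie1, Nos3 and Vwf). A call means an adjusted p under 0.05 in limma with Benjamini-Hochberg adjustment over all 22180 genes. Of all genes tested, 7.53% were called lower and 22.8% higher. Mean differences were below 0 for 8 of the 10 genes, a count of 10 after each array was centred on smooth muscle genes and of 6 after centring on other endothelial genes. The median over the 10 genes was -0.28, beside 0.10 over all genes. In no gene were the groups fully separated, whereas 4.8% of all genes had every double knockout array below every ApoE knockout array and 15.6% had every one above. Single arrays recurred among the extremes: the lowest of the 10 arrays was double knockout replicate 1 for 6 genes, and ApoE knockout replicate 1 was the lowest of its own group for 6.

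**Figure D1:**
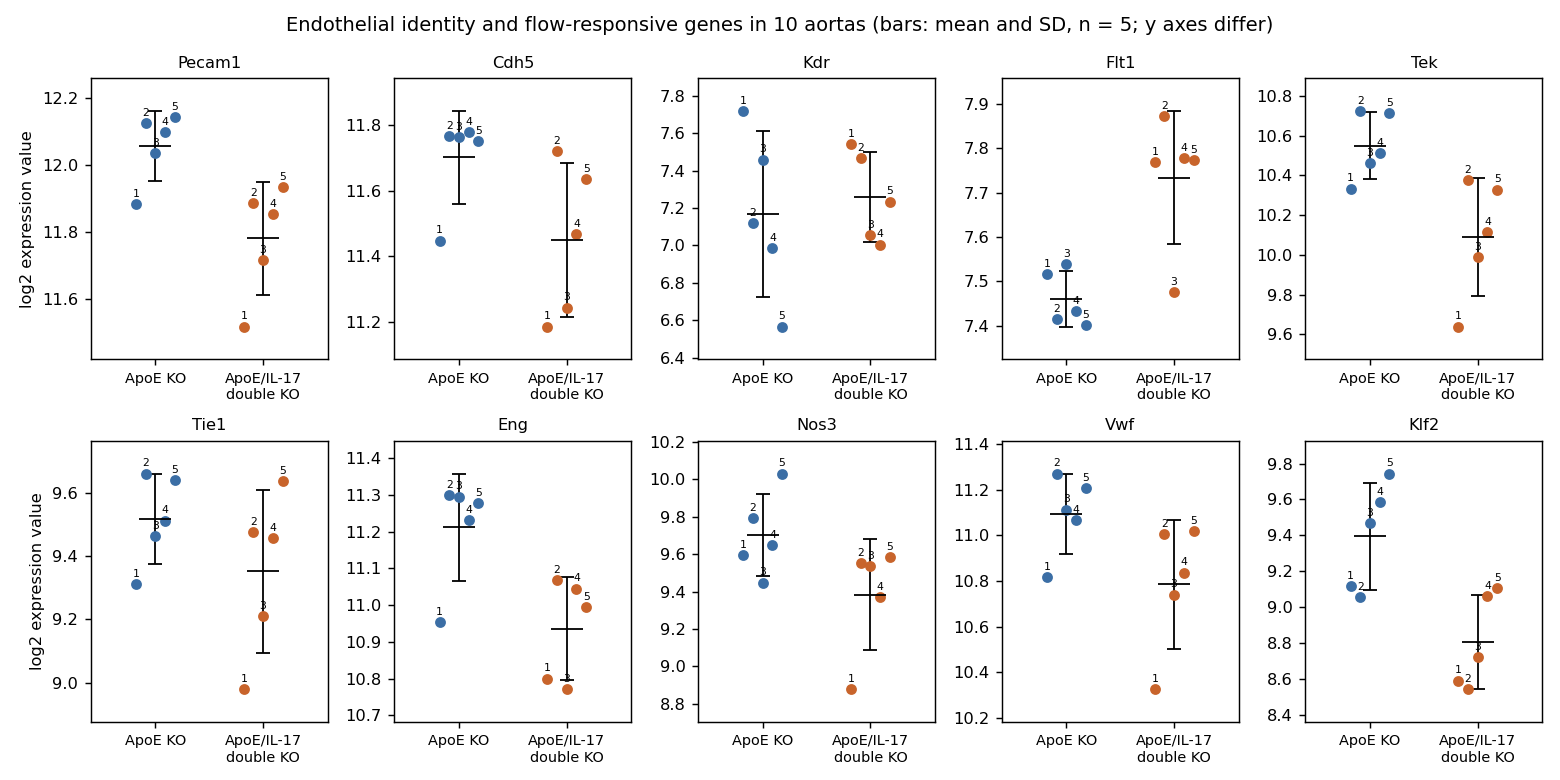
Log2 expression value of each of the 10 genes in each aorta, with ApoE knockout arrays in blue, double knockout arrays in orange, the replicate number beside each point and bars for the mean and SD of 5 arrays; y axes differ between panels. Klf2, Tek, Eng and Pecam1 sit lower in the double knockout as deposited, Flt1 sits higher as deposited (its difference turned to -0.035 after centring on smooth muscle genes), and the groups overlap in every panel.

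Among the junction genes, Pecam1, which encodes an adhesion receptor at endothelial borders that is also carried by platelets and leukocytes, fell in the double knockout. Its log2 values were 11.88, 12.13, 12.04, 12.10 and 12.14 in ApoE knockout replicates 1 to 5 and 11.52, 11.89, 11.72, 11.85 and 11.93 in the double knockout replicates. The groups overlapped only through ApoE knockout replicate 1, which lay just under the highest double knockout arrays. The difference was -0.28 (SE 0.09, n = 5 per group, limma adjusted p = 0.041), a 1.21-fold lower level. Leaving out ApoE knockout replicate 2, 3, 4 or 5, or double knockout replicate 1, 3 or 4, ended this call, with limma adjusted p from 0.056 to 0.084, as did quantile normalization (-0.25, limma adjusted p = 0.064).

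Cdh5 encodes VE-cadherin, the adhesion protein of the adherens junction. Values of 11.45, 11.77, 11.76, 11.78 and 11.75 stood in the ApoE knockout arrays against 11.19, 11.72, 11.24, 11.47 and 11.63 in the double knockout arrays. Apart from replicate 1, the ApoE knockout arrays lay within a narrow band above all double knockout arrays, which were spread more widely. The difference of -0.25 (SE 0.12, 95% interval -0.50 to 0.0017, limma adjusted p = 0.118) did not pass the threshold.

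Of 12 intracellular and neighbouring partners of these junction proteins, 4 were called lower and 0 higher, beside 7.53% and 22.8% of all genes. The median difference of the 12 was 0.02. Ocln, which encodes occludin of the tight junction, averaged 8.20 ± 0.28 (SD, n = 5) and 7.53 ± 0.36, a difference of -0.67 (limma adjusted p = 0.017). F11r, which encodes junctional adhesion molecule A, differed by -0.42 (limma adjusted p = 0.031), and Cgnl1, which encodes the junction protein paracingulin, by -0.29 (limma adjusted p = 0.037). The call of Ocln held with each aorta left out in turn, whereas those of F11r and Cgnl1 ended without ApoE knockout replicate 2, 3, 4 or 5 or double knockout replicate 1, 3 or 4, at limma adjusted p of 0.053 to 0.071 for F11r and 0.054 to 0.077 for Cgnl1. The fourth called gene was Jam2 (-0.31, limma adjusted p = 0.046). After quantile normalization 2 of the 12 were called lower, beside 11.2% of all genes, and Cgnl1 was not (-0.25, limma adjusted p = 0.056). The catenins that link cadherins to actin, Ctnnb1, Ctnna1 and Ctnnd1, were not called.

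Of the VEGF receptor genes, Flt1 was called higher and Kdr was not called, and both had differences above 0 as deposited and below 0 after centring on smooth muscle genes. Flt1 encodes VEGFR1, a receptor that also exists as a secreted trap for VEGF, and it was the only one of the 10 genes called higher. Its values were 7.52, 7.41, 7.54, 7.43 and 7.40 in the ApoE knockout arrays and 7.77, 7.87, 7.48, 7.78 and 7.77 in the double knockout arrays. Double knockout replicate 3 alone fell within the ApoE knockout range, and the other 4 lay above all of it. As deposited the difference was 0.27 (SE 0.08, limma adjusted p = 0.026), or 1.21-fold, after median centring it was 0.07 (limma adjusted p = 0.562), and after centring on smooth muscle genes it turned to -0.035 (limma adjusted p = 0.868). The call ended without ApoE knockout replicate 2 or 4 or double knockout replicate 2, 4 or 5, at limma adjusted p from 0.0505 to 0.056.

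Kdr encodes VEGFR2, the main signalling receptor for VEGF-A. Its values of 7.72, 7.12, 7.46, 6.98 and 6.57 in the ApoE knockout spanned the whole range of the double knockout, which read 7.54, 7.47, 7.06, 7.005 and 7.23. Within groups Kdr had the widest spread of the 10 genes (SD 0.36). The difference was 0.09 (SE 0.20, 95% interval -0.34 to 0.52, limma adjusted p = 0.745) and changed sign to -0.11 when arrays were centred on their medians, so no direction is given. Of 8 VEGF ligands and coreceptors, 2 were called lower and 0 higher, beside 7.53% and 22.8% of all genes, with a median of -0.12. Nrp1, which encodes the coreceptor neuropilin 1, averaged 10.53 ± 0.13 (SD) and 10.12 ± 0.21, a difference of -0.41 (limma adjusted p = 0.015) that held without each aorta in turn. Vegfb, a ligand of VEGFR1, differed by -0.40 (limma adjusted p = 0.026), a call that ended without ApoE knockout replicate 3 or double knockout replicate 4 or 5 (limma adjusted p 0.053 to 0.063). Pgf, the other dedicated VEGFR1 ligand, was not called (limma adjusted p = 0.104).

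Tek, which encodes the angiopoietin receptor TIE2, fell by 0.46 on the log2 scale (SE 0.14, limma adjusted p = 0.028), a 1.38-fold lower level. The ApoE knockout arrays read 10.33, 10.72, 10.46, 10.51 and 10.71, and the double knockout arrays read 9.64, 10.38, 9.99, 10.11 and 10.33. Double knockout replicate 1 was far the lowest, and only replicate 2 reached above the lowest ApoE knockout array. The call ended without ApoE knockout replicate 2 or 5 or double knockout replicate 3 or 4, at limma adjusted p from 0.0501 to 0.064.

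Tie1 encodes an orphan receptor that pairs with TIE2. It read 9.31, 9.66, 9.46, 9.51 and 9.64 in the ApoE knockout and 8.98, 9.48, 9.21, 9.46 and 9.64 in the double knockout. Double knockout replicates 1 and 3 were low, and replicate 5 came close to the high ApoE knockout arrays. The difference was -0.17 (SE 0.12, 95% interval -0.43 to 0.10, limma adjusted p = 0.317), and it was -0.073 without replicate 1 of the double knockout and 0.0055 once both of those low arrays were left out. The receptor's ligands and phosphatase moved in both directions. Of 4 genes, 2 were called lower and 1 higher, beside 7.53% and 22.8% of all genes.

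Angpt1 encodes the activating ligand of TIE2, and its groups were separated, with 7.18, 6.87, 6.82, 6.86 and 6.66 in the ApoE knockout and 5.79, 5.86, 5.71, 5.58 and 6.01 in the double knockout. It fell by 1.09 (SE 0.11, limma adjusted p = 1.0e-04), or 2.13-fold. The double knockout mean of 5.79 lay at the level of genes for smell, pheromone and taste receptors (5.80, the 95th percentile of 1428 such genes), with 3 of 5 arrays below it, so the fold is measured against a value near background. Angpt2, which encodes the context-dependent antagonist that endothelial cells release, read 8.67, 8.38, 8.59, 8.45 and 8.86 against 9.21, 8.93, 8.86, 9.17 and 9.17. One double knockout array, replicate 3, lay a hair under the highest ApoE knockout array, and the difference as deposited was 0.48 (SE 0.11, limma adjusted p = 0.0080), or 1.39-fold. Both calls held with each aorta left out in turn, and that of Angpt2 was lost after median centring (0.27, limma adjusted p = 0.076) or centring on smooth muscle genes (0.17, limma adjusted p = 0.296). Ptprb, which encodes the endothelial phosphatase VE-PTP that acts on TIE2, differed by -0.39 (limma adjusted p = 0.044), a call that ended without ApoE knockout replicate 2, 3, 4 or 5 or double knockout replicate 1, 3 or 4 (limma adjusted p 0.060 to 0.095).

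Eng encodes endoglin, the coreceptor through which endothelial cells respond to BMP9 and BMP10. Values of 10.95, 11.30, 11.29, 11.23 and 11.28 in the ApoE knockout compared with 10.80, 11.07, 10.77, 11.04 and 10.99 in the double knockout. All ApoE knockout arrays but replicate 1 lay above all double knockout arrays. Eng fell by 0.28 (SE 0.09, limma adjusted p = 0.042), or 1.21-fold, and this call ended without ApoE knockout replicate 2, 3, 4 or 5 or double knockout replicate 1, 3 or 5, at limma adjusted p from 0.057 to 0.096. Quantile normalization ended it as well (-0.23, limma adjusted p = 0.083). Of 13 genes of BMP9 signalling, 1 was called lower and 2 higher, beside 7.53% and 22.8% of all genes, with a median of -0.05. After median centring 6 were called lower and 1 higher, beside 25.4% and 7.52% of all genes. Smad6, an inhibitory Smad induced by this pathway, differed by -0.31 (limma adjusted p = 0.040), a call that ended without ApoE knockout replicate 2, 3, 4 or 5 or double knockout replicate 1, 3 or 4 (limma adjusted p 0.057 to 0.089). The genes called higher were both ligands near the receptor gene level, and that level itself was higher in the double knockout, with array medians of the 1428 receptor genes of 3.52 to 3.73 and 3.74 to 4.21 and a median difference of 0.29. Gdf2, which encodes BMP9, averaged 5.79 ± 0.17 (SD) and 6.47 ± 0.21, and Bmp10 was below that level in all 10 arrays, with a difference of 0.28 as deposited, of 0.016 after quantile normalization (limma adjusted p = 0.913) and of -0.034 after centring on smooth muscle genes. Gdf2 was still called higher after quantile normalization and median centring, and Bmp10 was not. The signalling receptors Acvrl1 and Bmpr2 were not called.

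Nos3 read 9.60, 9.79, 9.45, 9.65 and 10.03 in the ApoE knockout and 8.88, 9.55, 9.53, 9.37 and 9.59 in the double knockout. Replicate 1 of the double knockout was by far the lowest and the other 4 lay at the lower end of the ApoE knockout range or just under it. The difference of -0.32 (SE 0.15, 95% interval -0.64 to 0.0044, limma adjusted p = 0.121) did not pass, and it was -0.19 (limma adjusted p = 0.228) without that array. Among 11 regulators of the enzyme and receptors of nitric oxide, the median was 0.15. Of these 11, 0 were called lower and 4 higher, beside 7.53% and 22.8% of all genes. The 4 called higher were genes of the receiving side, which acts in smooth muscle. Gucy1b1 and Gucy1a1 encode the subunits of soluble guanylate cyclase. Prkg1 encodes a kinase activated by cyclic GMP, and Pde5a the phosphodiesterase that degrades cyclic GMP. Gucy1b1 averaged 10.03 ± 0.30 (SD) and 10.81 ± 0.10, a difference of 0.77 (limma adjusted p = 0.0017). Prkg1 differed by 0.53 (limma adjusted p = 0.0048) and Pde5a by 0.52 (limma adjusted p = 0.012), and their calls were lost after centring on smooth muscle genes, where the differences were 0.22 (limma adjusted p = 0.134) and 0.21 (limma adjusted p = 0.209). Gucy1a1 passed narrowly at 0.39 (limma adjusted p = 0.048). After median centring 2 of the 4, Gucy1b1 and Prkg1, were still called higher and 1 of the 11 was called lower. Of all genes, 7.52% were then called higher and 25.4% lower. After centring on smooth muscle genes 1 (Gucy1b1) was called higher and 1 lower, beside 2.16% and 23.3% of all genes.

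Vwf read 10.82, 11.27, 11.11, 11.07 and 11.21 in the ApoE knockout and 10.33, 11.01, 10.74, 10.84 and 11.02 in the double knockout. Within each group the arrays high or low for Tek were so for Vwf (r = 0.971 over 10 deviations from the group means). The difference was -0.31 (SE 0.14, 95% interval -0.60 to -0.013, limma adjusted p = 0.103) and was not called, and it was -0.19 (limma adjusted p = 0.190) without double knockout replicate 1. Of 5 measured partners in its storage and clearance, 1 was called lower and 0 higher, beside 7.53% and 22.8% of all genes. F8, which encodes the clotting factor that von Willebrand factor carries, differed by -0.50 (limma adjusted p = 0.041), a call that ended without ApoE knockout replicate 2, 3, 4 or 5 or double knockout replicate 1, 3 or 4 (limma adjusted p 0.060 to 0.096). Selp, stored with it in Weibel-Palade bodies and platelet granules, averaged 10.49 and 10.49.

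Klf2 showed the largest difference among the 10 genes. Its values were 9.12, 9.06, 9.47, 9.58 and 9.74 in the ApoE knockout and 8.59, 8.54, 8.72, 9.06 and 9.11 in the double knockout. Double knockout replicates 1, 2 and 3 lay below all ApoE knockout arrays, and replicates 4 and 5 lay just above the lowest of them. Klf2 fell by 0.59 (SE 0.16, 95% interval -0.93 to -0.24, limma adjusted p = 0.017), or 1.504-fold. It was the only one of the 5 called genes to keep its call with each aorta left out in turn (limma adjusted p 0.013 to 0.041). Leaving out double knockout replicates 1 and 3 together, the lowest for the other endothelial genes, gave -0.49 (limma adjusted p = 0.099).

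Calls among genes upstream or downstream of Klf2 depended on the scaling of the arrays. Of 10 flow sensors and members of the MEK5, ERK5 and MEF2 cascade, 0 were called in either direction as deposited, with a median of -0.02 and limma adjusted p from 0.264. At an unadjusted p under 0.05 the count was 0 as well. The smallest p belonged to Plxnd1, a plexin that senses flow (10.12 and 9.94), and to Piezo1, a force-gated channel (9.48 and 9.33). Of 8 genes raised by laminar flow, 1 was called lower as deposited, beside 7.53% of all genes, and 0 higher, with a median of -0.18. That gene was Gja4, which encodes a gap junction connexin and is also an arterial marker, at -0.61 (limma adjusted p = 0.022), a call that ended without ApoE knockout replicate 4 or double knockout replicate 3 (limma adjusted p 0.053 for both). Klf4, the close relative of Klf2 and named here after its values were seen, averaged 9.77 and 9.60 (limma adjusted p = 0.400). Of 9 genes raised by disturbed flow, Angpt2 was called higher and Icam1, an adhesion molecule for leukocytes, lower (-0.39, limma adjusted p = 0.036). Of all genes, 22.8% were called higher and 7.53% lower. The call of Icam1 ended without ApoE knockout replicate 2, 3, 4 or 5 or double knockout replicate 1, 3 or 4 (limma adjusted p 0.053 to 0.081). After median centring, 3 flow sensing, 4 laminar flow and 3 disturbed flow genes were called lower, beside 25.4% of all genes. After centring on smooth muscle genes these counts were 2, 5 and 3, beside 23.3% of all genes. Neither centring gave a call higher in these lists. Quantile normalization gave 0 flow sensing, 1 laminar flow and 0 disturbed flow genes lower, beside 11.2% of all genes. It gave 2 disturbed flow genes higher, Angpt2 and Ccn2, beside 8.94% of all genes. The call of Icam1 was lost there (-0.35, limma adjusted p = 0.054).

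Exact permutation tests over the arrays, two-sided and not adjusted for the 10 genes tested, gave p of 0.0159 for Tek, 0.0238 each for Pecam1, Flt1 and Klf2, and 0.0317 for Eng. With 5 arrays against 5 the smallest p that such a test can give is 0.0079. How far each limma call leaned on single aortas is shown in the plot of adjusted p with each aorta left out. The number of the 10 genes called lower ran from 1 to 4, and that called higher was 0 or 1. Without ApoE knockout replicate 1, Pecam1, Cdh5, Tek, Eng and Vwf were lower in every double knockout array, so 5 genes were separated against 0 with it, and 6.56% of all genes were then separated in that direction. Without double knockout replicates 1 and 3 together, 0 of the 10 were called lower by limma, and 2 of them, Tek and Klf2, were lower at an unadjusted p under 0.05.

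**Figure D2:**
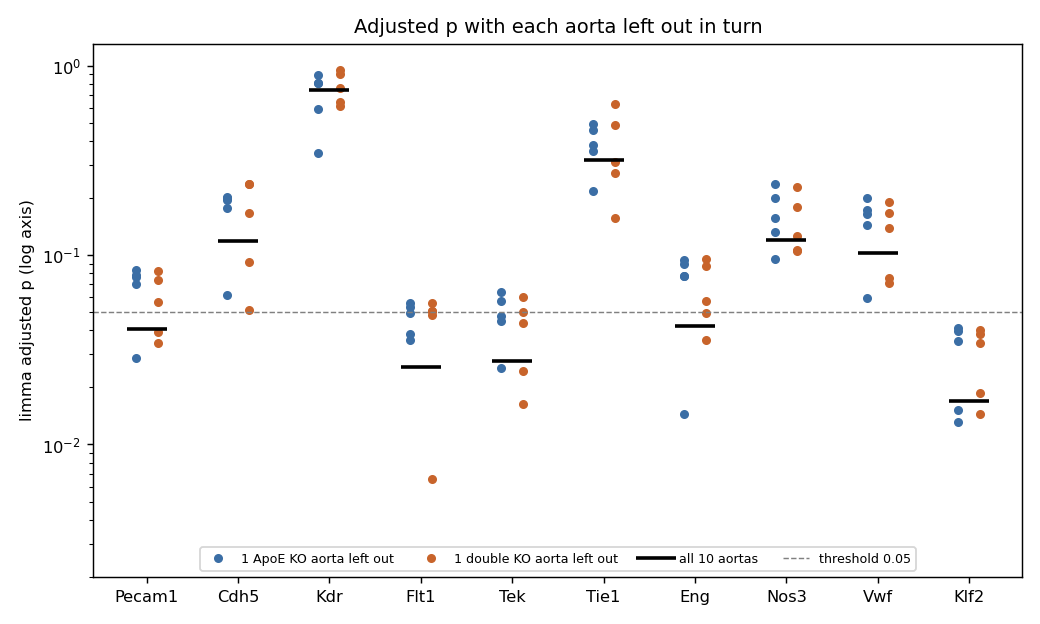
Limma adjusted p (log axis) of each of the 10 genes with 1 ApoE knockout aorta (blue) or 1 double knockout aorta (orange) left out, with the value from all 10 aortas as a black bar and the threshold of 0.05 as a dashed line. Every point of Klf2 lies under the threshold, those of Pecam1, Flt1, Tek and Eng lie on both sides of it, and every point of Cdh5, Kdr, Tie1, Nos3 and Vwf lies above it.

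Pan-endothelial markers that are not among the 10 genes were read in the same arrays. Of 20 measured, 5 were called lower (Fli1, Sox7, Icam2, Mmrn2 and Ptprb) and 0 higher, beside 7.53% and 22.8% of all genes. The median of the 20 was -0.25. Their mean log2 level was 8.98 to 9.36 in the ApoE knockout arrays against 8.72 to 9.17 in the double knockout arrays, with double knockout replicates 3 and 1 lowest. Fli1 and Sox7, transcription factors of this list, differed by -0.56 and -0.54 (limma adjusted p = 0.014 for each), and both calls held with each aorta left out. The defining markers Erg, Emcn, Cldn5 and Robo4 were above the receptor gene level in every array and were not called. In whole aortas, fewer endothelial cells and less RNA per endothelial cell cannot be told apart. Platelet and lymphocyte markers were lower as well, with medians of -1.18 and -1.40. Whether blood cells contributed to the levels of Fli1 and Icam2 was not tested.

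Subtracting the mean of those 20 markers from each array asks how the 10 genes stood relative to other endothelial genes. Flt1 alone was then called, and its relative level was higher in every double knockout array (-1.40 to -0.995) than in any ApoE knockout array (-1.95 to -1.47). That difference was 0.54 (SE 0.14, limma adjusted p = 0.0073), or 1.45-fold, and it held with each aorta left out (limma adjusted p 0.0030 to 0.024). Klf2 remained the most negative at -0.32 (95% interval -0.68 to 0.04, limma adjusted p = 0.122), followed by Tek at -0.19 (95% interval -0.46 to 0.07, limma adjusted p = 0.201). Pecam1, Eng, Cdh5, Vwf and Nos3 had relative differences between -0.05 and 0.02, each with an interval that spans 0. On this scale 1.52% of all genes were called lower and 43.7% higher, and 19.8% had every double knockout array above every ApoE knockout array, so the call of Flt1 lay in the common direction.

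**Figure D3:**
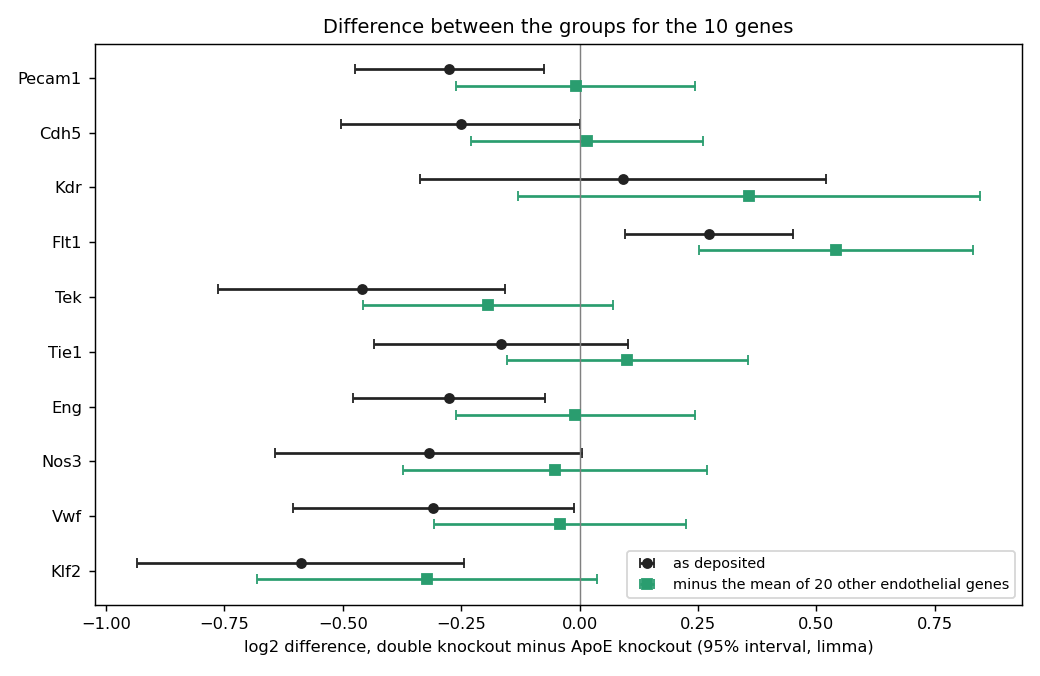
Log2 difference (double knockout minus ApoE knockout) with its 95% limma interval for each of the 10 genes, as deposited (black circles) and after subtraction of the mean of 20 other endothelial genes (green squares). The intervals of Pecam1, Tek, Eng, Vwf and Klf2 lie below 0 as deposited and all reach 0 on the relative scale, where Flt1 alone (0.54) stays clear of it; after centring on smooth muscle genes the difference of Flt1 was -0.035.

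Aortas that were high or low for 1 gene of a block of 6 tended to be so for the others. After group means were removed, Pearson's r over the 10 arrays ran from 0.746 to 0.977 across the 15 pairs of Pecam1, Cdh5, Tek, Tie1, Eng and Vwf, highest for Pecam1 with Tie1 and 0.971 for Tek with Vwf. These points share the array and its amount of endothelial RNA, and r is given as a description. The block holds the genes whose r was high in these same arrays, so its narrow range follows in part from that choice. Nos3, left out of it, had r of 0.845 with Tek and 0.794 with Vwf but 0.372 with Eng. Klf2, Flt1 and Kdr stood outside this block. Klf2 had r of 0.232 and Flt1 of 0.234 with the mean of the other members, and Kdr had -0.547. Kdr was negative with 8 of the other 9 genes, down to -0.66 with Klf2, and positive with Flt1 (0.535).

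**Figure D4:**
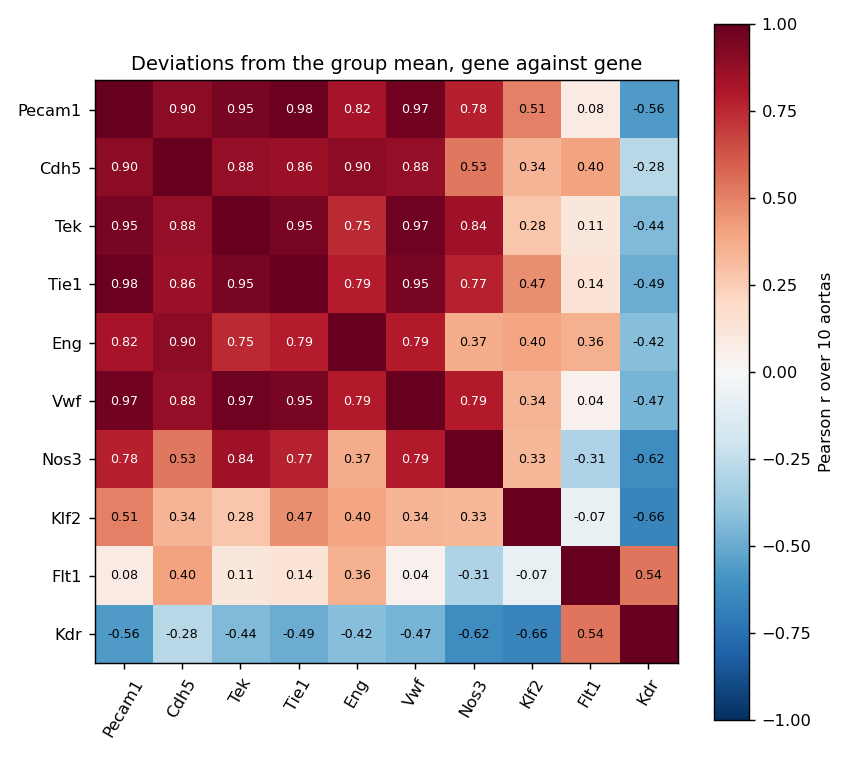
Pearson's r between each pair of the 10 genes over 10 aortas, computed on deviations from the group mean and colored from -1 (blue) to 1 (red). The block of Pecam1, Cdh5, Tek, Tie1, Eng and Vwf has r from 0.746 to 0.977, Nos3 joins it in part, and Kdr is negative with every gene except Flt1.

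The member mean, in the same within-group deviations, had r of 0.916 with the pan-endothelial list, 0.894 with arterial markers and 0.932 with the laminar flow list. Its r was also high with the junction partners (0.919) and with the disturbed flow list (0.818). It had r of -0.754 with white adipocyte markers, -0.648 with brown adipocyte markers and -0.747 with capillary markers. Kdr instead had its highest r with the capillary list (0.802), followed by the platelet (0.783), brown adipocyte (0.748) and VEGF ligand and coreceptor (0.712) lists. Flt1 had its highest r with the platelet (0.838) and macrophage (0.719) lists, against 0.394 with the pan-endothelial list. Klf2 had its highest r with the BMP9 signalling (0.748) and smooth muscle (0.622) lists, against 0.312 with the pan-endothelial list. The 6 genes outside the group with the most similar pattern, of 13489 above the receptor gene level, were Rhbdf2 (r = 0.984), Fbxo28 (0.979), Sdf2l1 (0.976), Cacul1 (0.976), Slc41a2 (0.973) and Snap23 (0.969). None of these belongs to the pan-endothelial list. Leaving out 1 aorta at a time, between 1 and 5 of the 6 recurred.

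The markers of endothelial subtypes that were called were all lower, beside 7.53% of all genes called lower and 22.8% higher. Of 8 arterial markers, 3 were called lower and 0 higher: Bmx (-0.68, limma adjusted p = 0.016), Gja4 and Efnb2 (-0.38, limma adjusted p = 0.042), while Gja5 averaged 8.83 and 8.53. The call of Bmx held with each aorta left out, and that of Efnb2 ended without ApoE knockout replicate 2, 3, 4 or 5 or double knockout replicate 1, 3 or 4 (limma adjusted p 0.051 to 0.094). Ackr1 was the 1 of 5 venous markers called lower (-0.50, limma adjusted p = 0.016), and Plvap the 1 of 5 capillary markers (-0.49, limma adjusted p = 0.044). The median differences of the venous and capillary lists were -0.0066 and -0.10, and their other defining markers, Aplnr and Gpihbp1, were not called. Among 6 lymphatic markers Mmrn1 alone was called lower (-0.83, limma adjusted p = 0.034), and Prox1, which defines lymphatic endothelium, was below the receptor gene level in 4 of 5 ApoE knockout and 5 of 5 double knockout arrays. Plvap lost its call without each aorta except ApoE knockout replicate 1 and double knockout replicate 2 (limma adjusted p 0.051 to 0.097). Mmrn1 lost it without replicate 1, 2 or 3 of either group (limma adjusted p 0.052 to 0.080). Whether blood cells contributed to the levels of Ackr1 and Mmrn1 was not tested.

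Other cell types of the aorta moved alongside. Markers of platelets, which also carry PECAM-1 and von Willebrand factor, were called lower in 9 of 10 cases and higher in 1 (Itgb3), with mean log2 levels of 8.86 to 9.34 in the ApoE knockout and 7.57 to 8.06 in the double knockout. Gp9, a platelet receptor subunit, differed by -2.14 (limma adjusted p = 7.4e-05). Of all genes, 7.53% were called lower. All 5 measured red cell markers were called lower, with means of 7.33 to 7.97 and 5.99 to 6.17, and 7 of 9 lymphocyte markers were called lower, with means of 6.90 to 8.44 and 5.89 to 6.83. Smooth muscle markers were called higher in 4 of 9 cases, with means of 10.89 to 11.51 and 11.46 to 11.57, fibroblast markers in 3 of 8, with 11.25 to 11.32 and 11.33 to 11.63, and pericyte markers in 1 of 6, with 9.31 to 9.52 and 9.58 to 9.77, beside 22.8% of all genes called higher. After median centring 0 smooth muscle, 1 fibroblast (Lum) and 0 pericyte markers were called higher by limma, beside 7.52% of all genes, and at an unadjusted p under 0.05 the counts were 0, 1 and 1. No macrophage marker of 8 was called (9.75 to 10.27 and 9.40 to 10.45), no white adipocyte marker of 7 was (8.42 to 10.08 and 8.08 to 9.30), and 1 of 6 brown adipocyte markers, Dio2, was called higher (7.99 to 10.37 and 8.31 to 9.66), a call lost after median centring (limma adjusted p = 0.064). At an unadjusted limma p under 0.05, 0 macrophage markers and 1 white adipocyte marker were lower, and 0 of either were higher. Of 8 immediate early genes, which respond within minutes of handling, Dusp1 was called lower and 0 higher, beside 7.53% and 22.8% of all genes. No defining marker of these lists was at 0, since arrays give a value to every probe set, and the pericyte marker Higd1b was below the receptor gene level in all 10 arrays. Their part in the differences of the endothelial genes was not tested.

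**Figure D5:**
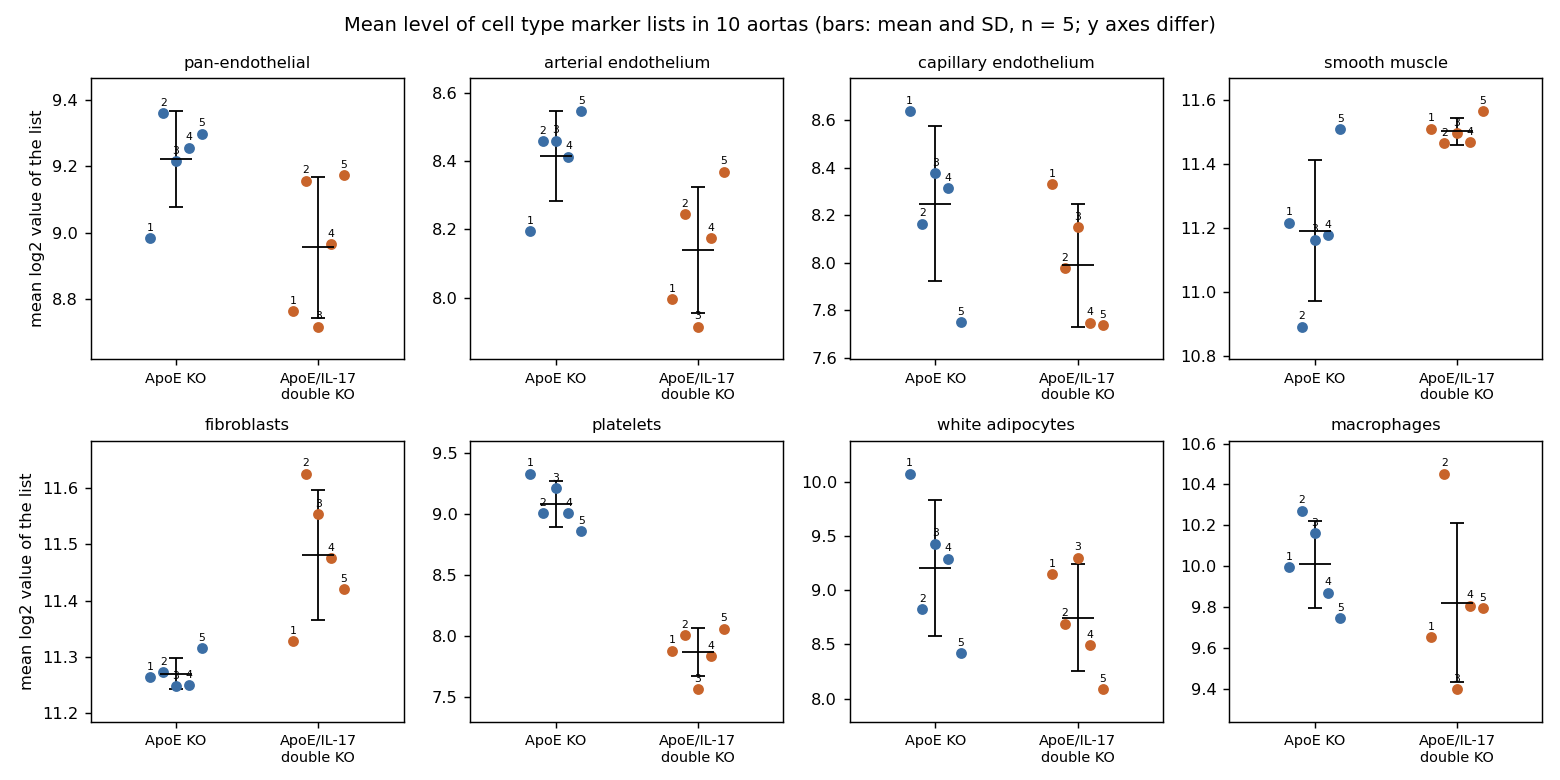
Mean log2 value of the measured genes of 8 marker lists in each aorta, with ApoE knockout arrays in blue, double knockout arrays in orange, replicate numbers beside the points and bars for the mean and SD of 5 arrays; y axes differ. Platelet markers separate the groups completely (8.86 to 9.34 against 7.57 to 8.06) and fibroblast markers do so the other way, whereas pan-endothelial, arterial, capillary, smooth muscle, white adipocyte and macrophage markers overlap.

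Across all genes, 6721 of 22180 were called by limma, 75.1% of them higher in the double knockout. That share moved to 44.4% after quantile normalization, 22.8% after median centring, 64.3% after upper quartile centring, 57.3% with only genes above the receptor gene level and 56.6% without the lowest 40% of genes, 96.6% after centring on the endothelial list and 8.46% after centring on smooth muscle genes. Array medians were 5.76 to 5.80 in the ApoE knockout and 5.95 to 6.03 in the double knockout, while upper quartiles ran from 7.55 to 7.66 across both. Correlations between arrays across genes were 0.986 to 0.993 within groups and 0.970 to 0.986 between them. Il17a, the targeted gene, averaged 4.41 ± 0.14 (SD, n = 5) and 4.66 ± 0.17, below the receptor gene level in both groups, so its level does not check the labels.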

How the data were processed

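Per the labels' protocols, aorta RNA was labelled with biotin and read on Affymetrix arrays (Mouse Gene 2.0 ST). The deposited table holds 1 value per probe set and array for 41345 probe sets. Base 2 of these log2 values was inferred from their range, as the authors' deposited table does not state it. Per the submitters' processing notes limma was among the authors' tools, but background correction, normalization and summarization are steps not given in the sources used here. Of the probe sets, 23521 carried 1 gene symbol in the platform annotation, 1814 several and 16010 none. Of the single symbols, 23328 were found in the RefSeq gene table of GRCm38.p6, and for 1082 genes with several probe sets the brightest was used. The number of arrays limits the precision. Replicates are labelled biological replicates.

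The test was limma (version 3.58.1, R 4.3.3; lmFit, then eBayes), two-sided, with group as the only term and Benjamini-Hochberg adjustment over 22180 genes at 0.05. The 95% intervals and SE come from this fit. Promoter windows and start sites were taken from RefSeq. Figures were drawn with matplotlib 3.10.9. The members and gene lists were chosen with earlier results of these data known, and the lymphocyte and immediate early lists were added after the data were seen. Named are all 10 members, up to 3 genes of each pathway list by smallest p, the defining genes and up to 2 more of each marker list, and the 6 most similar genes. Further called genes of a list were named to complete its count, after their values were seen. Alternatives covered normalization, centring, filters on dim genes, array weights, the prior, the probe set rule, arrays left out and a block for the replicate number. Simulated data for this comparison held 22180 genes, 200 of them changed. The code recovered 89% of the genes given a log2 change of 1 and 99% of those given a change of 2. There were 0 wrong signs and 8 false calls. No change below 1 was simulated, although the differences of all 10 members were smaller than that, and the noise was independent between genes. Recovery of changes of the members' size was therefore not tested.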

Additional observations from a re-analysis of the deposited data

Results flagged for a closer look

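The 68 named genes gave 136 groups of 5 arrays. In 12 of these, 1 array stood apart from the other 4 by more than Dixon's limit for a group of this size. Chance alone gives about 1 in 20 where groups are independent. These groups come from the same 10 arrays and from genes that vary together, so the 12 cannot be weighed against that rate. Cdh5, Eng and Flt1, of the 10 endothelial genes followed here, were among the 12. Cdh5 in ApoE knockout replicate 1 read 11.45, below the 11.75 to 11.78 of the rest of its group. Eng in that array read 10.95, against 11.23 to 11.30. Flt1 in double knockout replicate 3 read 7.48, against 7.77 to 7.87, and it is the array that makes the groups of Flt1 overlap. Without ApoE knockout replicate 1 the difference of Eng was -0.34 (limma adjusted p = 0.014), and without double knockout replicate 3 that of Flt1 was 0.34 (limma adjusted p = 0.0066).

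ApoE knockout replicate 1 also stood apart for Ptprb (11.96 against 12.31 to 12.42), for Pdgfra, a fibroblast marker (10.41 against 9.88 to 9.93), and for Dpt, which encodes the matrix protein dermatopontin (12.86 against 13.06 to 13.10). Replicate 2 of the same group was high for the red cell genes Slc4a1 (10.78 against 10.12 to 10.28) and Sptb (7.21 against 6.72 to 6.85). In the double knockout, replicate 1 was high for Gdf2 (6.83 against 6.31 to 6.46). Replicate 2 was low for Pde5a (10.64 against 11.06 to 11.13) and high for Csf1r, a macrophage gene (9.99 against 9.06 to 9.18). Replicate 3 was low for Emcn, an endothelial sialomucin (10.35 against 10.88 to 11.09).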

How the results depend on the processing

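With each array left out in turn, the count of the 10 genes called lower ran from 1 to 4, called higher from 0 to 1 and separated from 0 to 5, the pan-endothelial genes called lower from 2 to 7, the recurring similar genes from 1 to 5, the genes called relative to the endothelial list from 1 to 2, and the difference of Kdr from -0.060 to 0.23. Quantile normalization gave 4461 called genes and 2 of the 10 lower, with the calls of Pecam1 and Eng lost. Median centring, which shifts all genes by -0.20, gave 8 lower, 0 higher and 5 separated, with 25.4% of all genes called lower. It also gave 11 pan-endothelial genes lower and Kdr at -0.11. Upper quartile centring gave 2 separated. The filters on dim genes gave 3494 called genes (above the receptor gene level) and 3419 (without the lowest 40%), from fewer genes tested. Centring on the pan-endothelial list, which shifts all genes by 0.27, gave 0 lower, 1 separated, 0 pan-endothelial genes lower, and Cdh5 at 0.016, Tie1 at 0.10 and Cacul1 at 0.047. Centring on smooth muscle genes, which shifts all genes by -0.31, gave 8 lower, 0 higher and 7 separated, with 23.3% of all genes called lower. It also gave 14 pan-endothelial genes lower, Kdr at -0.22, Flt1 at -0.035, Serpinf1 at -0.050 and Bmp10 at -0.034. Without double knockout replicates 1 and 3 together there were 3995 called genes, 0 of the 10 lower, 1 separated, 0 pan-endothelial genes lower, 0 recurring similar genes and Tie1 at 0.0055. Without replicate 1 of both groups, chosen after seeing the data, 0 were called higher, 5 were separated and 2 similar genes recurred. With the replicate number as a block, 0 of the 10 were called higher (Flt1 at limma adjusted p = 0.057), Vwf was called (limma adjusted p = 0.021) and 3 genes were called relative to the endothelial list. The labels name no pairing of arrays with the same number, so whether they share more than it is not known. The correlations of their deviations were 0.26, 0.20, -0.13, 0.06 and 0.14, and 3 of 5 correlated best with their own number. The causes of these shifts were not tested.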
